A study of Mus musculus with 4 samples.

Results

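Ntrk2, Mdga2, Olfm3, Fam19a1, Ap1s2 and Tmem158 are 6 genes grouped here as neuronal genes, a name that was not tested. They were read in the melanotrophs of the mouse pituitary, the cells of the intermediate lobe that make α-MSH from the hormone precursor gene Pomc. They were picked out of 31053 genes because their levels were lower in melanotrophs of mice that overexpress p25 (p25OE) than in those of wild-type (WT) littermates. The difference between p25OE and WT melanotrophs is therefore a description of what chose them, and no support is drawn from it. All 6 symbols were found in the gene list of the deposited matrices.

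Pituitaries were taken at 14 and 40 weeks of age, and each of the 4 groups was 1 single-cell RNA library: WT at 14 weeks, p25OE at 14 weeks, WT at 40 weeks and p25OE at 40 weeks. The strain of every library is labelled C57BL/6- B6;CBA-BiTg mice. p25 is a fragment of p35, an activator of the kinase Cdk5. The promoter that drives the transgene, the number of glands per library and the sex of the mice are not given in the sources used here. With 1 library per group, there is no spread between animals to compare with, and no p-value was computed. Intervals are exact 95% intervals that cover counting error only. A count of 0 is given a limit of 3 counts, which lies below the upper end of the two-sided exact interval.

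Cells were kept with at least 500 detected genes and at most 20% mitochondrial counts, which left 6579, 7667, 7927 and 7726 cells in the order of groups above. RNA molecules were counted with unique molecular identifiers (UMIs), and the libraries held between 53714895 and 95242353 UMIs. A cell was gated as a melanotroph when Pcsk2, Pax7, Oacyl and Megf11 together reached 8 UMIs per 10000 and at least 3 UMIs, and Pomc reached 1% of its UMIs. This gave 545, 1600, 584 and 6546 melanotroph-gated cells, with median depths of 17584, 9006, 7070 and 7125 UMIs. Pax7, the transcription factor that sets melanotroph identity, was 1.21-fold higher in p25OE than in WT melanotroph-gated cells at both ages. Oacyl differed 1.02-fold at 14 weeks and was 1.15-fold lower in p25OE at 40 weeks. Pcsk2 was 1.48-fold lower and 1.14-fold higher. Megf11, the last of the gate's genes, was itself 3.25-fold lower in p25OE at 14 weeks and 1.38-fold lower at 40 weeks. Cdk5r1, the gene for p35, was at 15 and 24.9 UMIs per 1000000 (CPM) in WT and p25OE at 14 weeks and at 13.8 and 17.3 CPM at 40 weeks, and the counts do not tell the transgene from the mouse gene. The WT library at 40 weeks carried the most hormone RNA of other cells, with summed somatotroph markers of 27664 CPM in its melanotroph-gated cells against 590 to 8547 CPM in the other libraries. Libraries of the same age shared 32 cell barcodes at 14 weeks and 135 at 40 weeks, and libraries of different ages shared 1 to 5.

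As background, Ntrk2 encodes TrkB, the receptor of the neurotrophin BDNF. Mdga2 encodes a membrane-anchored protein that binds neuroligins and restrains synapse formation. Olfm3 encodes a secreted olfactomedin, Fam19a1 a small secreted protein of the TAFA family, Ap1s2 a small subunit of the AP-1 adaptor that sorts cargo into clathrin-coated vesicles, and Tmem158 a membrane protein known as a gene induced by Ras. Melanotrophs are excitable secretory cells under dopamine and GABA control, and they carry many genes that neurons use.

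The promoters of the members are shown to describe their start sites, which are of different kinds. RefSeq promoters (GRCm38.p6) matched 5 of the 6 genes, Fam19a1 under its newer symbol Tafa1. Tmem158 was not matched. The 250 bases before the start of transcription are printed 5′ to 3′ on the gene's strand, with CpG dinucleotides in capitals, for 2 promoters rich in CpG and 2 poor in it. They lie at chr13:58806319-58806568 (plus strand, Ntrk2), chrX:163908767-163909016 (plus strand, Ap1s2), chr3:114903828-114904077 (plus strand, the first of 2 Olfm3 starts listed) and chr6:96112904-96113153 (plus strand, Fam19a1).
Ntrk2: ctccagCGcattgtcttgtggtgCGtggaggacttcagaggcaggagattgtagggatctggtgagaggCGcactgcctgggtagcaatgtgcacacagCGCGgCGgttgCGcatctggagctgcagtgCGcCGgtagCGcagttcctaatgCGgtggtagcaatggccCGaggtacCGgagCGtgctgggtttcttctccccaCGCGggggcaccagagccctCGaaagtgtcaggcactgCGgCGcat
Ap1s2: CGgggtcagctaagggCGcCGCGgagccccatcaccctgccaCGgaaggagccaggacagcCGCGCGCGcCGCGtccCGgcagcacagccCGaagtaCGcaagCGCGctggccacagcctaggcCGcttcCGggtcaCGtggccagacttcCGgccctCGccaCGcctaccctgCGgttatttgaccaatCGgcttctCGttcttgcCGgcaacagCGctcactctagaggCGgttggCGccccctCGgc
Olfm3: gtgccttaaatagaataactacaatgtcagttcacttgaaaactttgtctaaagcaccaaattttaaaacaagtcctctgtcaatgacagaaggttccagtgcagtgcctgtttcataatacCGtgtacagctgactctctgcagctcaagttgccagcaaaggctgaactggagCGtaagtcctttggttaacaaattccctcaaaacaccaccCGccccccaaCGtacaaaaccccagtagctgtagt
Fam19a1: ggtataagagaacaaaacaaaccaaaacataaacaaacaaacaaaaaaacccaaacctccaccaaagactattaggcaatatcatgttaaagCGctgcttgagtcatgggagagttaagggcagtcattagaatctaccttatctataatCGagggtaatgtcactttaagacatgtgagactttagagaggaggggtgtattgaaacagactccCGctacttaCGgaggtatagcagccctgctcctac

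Ap1s2 held 30 CpG in these 250 bases, Ntrk2 19 and Mdga2 15, while Olfm3 and Fam19a1 held 4 each, against a median of 6.00 over 32851 promoters. At least 15 CpG were present in 27.3% of all promoters and at most 4 in 44.4%. On both strands, none of the 5 windows held the cAMP response element TGACGTCA (1.55% of all promoters), the T-box site TCACACC (3.33%), the homeodomain site TAATTA (4.84%) or TATAAA (12.4%). Mdga2 alone held TGACG, which is contained in the longer element and is present in 17.8% of all promoters. The E-box CANNTG was in 4 of the 5 windows, all but that of Mdga2, and in 66.2% of all promoters. Absence of a match says only that these letters are not in this window.

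In the annotation of GRCm38, Ntrk2 spans 327402 bases of chromosome 13 (58806569 to 59133970, plus strand), Mdga2 756490 bases of chromosome 12 (66466060 to 67222549, minus strand) and Fam19a1 544045 bases of chromosome 6 (96113154 to 96657198, plus strand). Olfm3 spans 221645 bases of chromosome 3 (114904078 to 115125722, plus strand) and Ap1s2 24650 bases of chromosome X (163909017 to 163933666, plus strand). Tmem158 is the short one, with 1712 bases of chromosome 9 (123259053 to 123260764, minus strand). No other gene of the matrices has an exon that overlaps an exon of these 6. The counts are per gene, so forms of a transcript, such as full-length and truncated TrkB, are not told apart.

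All 6 genes were at least 1.5-fold lower in p25OE than in WT melanotroph-gated cells at both ages. Among all 14624 genes with at least 20 UMIs over the pair at 14 weeks, 9.57% were that much lower, and 18.6% of 15506 at 40 weeks. Because the members were chosen on this contrast, nothing is read from their count. The median log2 ratio of the members was -1.64 at 14 weeks and -1.97 at 40 weeks, beside 0.04 and 0.02 over all genes. Levels below are scaled CPM, that is, CPM after scaling each library to the median gene of the melanotroph-gated cells, and they are compared between libraries, not between genes.

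Ntrk2, the BDNF receptor, was at 82.7 scaled CPM in WT against 18.2 in p25OE at 14 weeks, and at 49.1 in WT against 5.35 in p25OE at 40 weeks. Both p25OE libraries lay below both WT libraries, and p25OE at 40 weeks was the lowest. The ratio was 4.55-fold lower (4.04 to 5.13) at 14 weeks and 9.19-fold lower (7.54 to 11.2) at 40 weeks. Macrophage-gated cells, which served as a gauge of free RNA, held Ntrk2 at 20.6 CPM in WT against 9.63 in p25OE at 14 weeks, and at 18.7 and 1.60 CPM at 40 weeks. Ntrk2 in these cells was thus also lower in p25OE, and the part of free RNA in the melanotroph ratio was not tested.

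Mdga2, the neuroligin-binding protein, was at 45.2 scaled CPM in WT against 12.4 in p25OE at 14 weeks, and at 39.7 and 15.2 at 40 weeks. The 4 libraries formed 2 separate pairs by genotype. It was 3.64-fold lower (3.13 to 4.24) at 14 weeks and 2.61-fold lower (2.16 to 3.15) at 40 weeks and is the member whose ratio was nearer to 1 at the later age. Olfm3 was at 27.2 and 8.07 scaled CPM in WT and p25OE at 14 weeks and at 25 and 5.24 at 40 weeks, which is 3.37-fold lower (2.79 to 4.09) and 4.78-fold lower (3.69 to 6.12). Fam19a1 was at 26.9 and 9.35 scaled CPM at 14 weeks and at 42.7 and 13.2 at 40 weeks, or 2.88-fold (2.40 to 3.46) and 3.23-fold lower (2.68 to 3.87). For each of these secreted proteins, too, no p25OE library reached a WT library.

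Ap1s2, the adaptor subunit, was at 88.6 scaled CPM in WT against 36.7 in p25OE at 14 weeks, and at 117 and 29.5 at 40 weeks. It was 2.41-fold lower (2.19 to 2.65) and 3.96-fold lower (3.53 to 4.43). Ap1s2 lies on the X chromosome, and all 4 libraries held Xist, at 986 to 1534 CPM, with 0 to 10 UMIs for each of 4 Y-linked genes in all kept cells of a library. Tmem158 was at 343 and 127 scaled CPM in WT and p25OE at 14 weeks and at 347 and 90.1 at 40 weeks. That is 2.71-fold lower (2.58 to 2.85) and 3.85-fold lower (3.61 to 4.11), with WT levels within counting error of each other on this scale. In plain CPM the WT libraries were at 363 and 271.

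**Figure D1:**
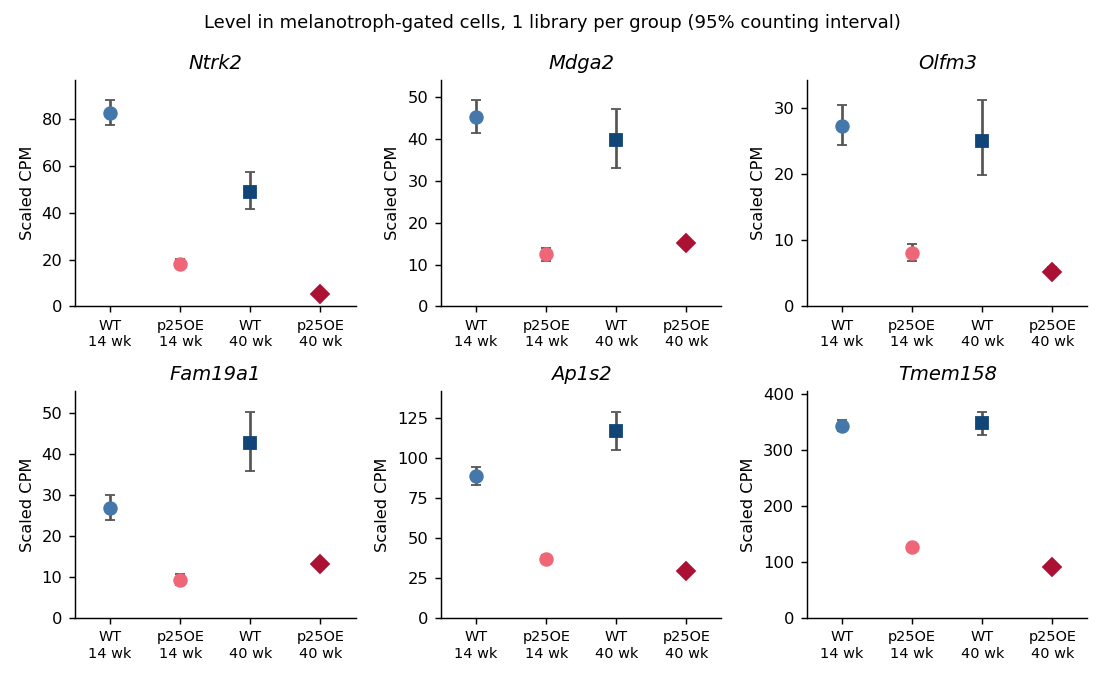
Scaled CPM (y axis, from 0) of each gene in melanotroph-gated cells of the 4 libraries (x axis), with 95% counting intervals. Both p25OE libraries lie below both WT libraries for all 6 genes, from 18.2 against 82.7 for Ntrk2 to 36.7 against 88.6 for Ap1s2 at 14 weeks.

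Of the markers of other cells, neuron and glia sums were higher in p25OE at one age and lower at the other, while somatotroph sums were lower in p25OE at both ages and the pituicyte sum was level at 14 weeks and lower at 40 weeks. Of 6 neuron markers, 5, 5, 6 and 5 had a UMI in melanotroph-gated cells, in the order of groups above, and their summed level was 129, 112, 77.6 and 122 CPM. Rbfox3, the largest part of this sum in each library, was at 68.3, 84.1, 46.7 and 107 CPM. It was thus higher in p25OE at both ages. Camk2a was at 50.3, 22.4, 20.5 and 12.3 CPM and Slc17a7 at 9.47, 2.36, 6.67 and 2.22 CPM. Both were lower in p25OE at both ages. Slc17a6 was at 1.09, 3.22, 3.33 and 0.108 CPM, while Neurod6 was at 0 in 3 libraries and Slc32a1 at 0.108 to 0.364 CPM. The 6 glia markers summed to 26.6, 66.2, 61.9 and 30.1 CPM, the 5 pituicyte markers to 55.2, 54.7, 29.3 and 17.1 CPM and the 5 somatotroph markers to 8547, 5298, 27664 and 590 CPM. Of the defining markers, Mog was at 0 in WT at 14 weeks and at 0.0538 to 2.38 CPM in the other libraries, and Rax at 0.0911 to 0.476 CPM. Among the pituicyte markers, Slc1a3 was lower in p25OE at both ages (45.6 and 26.5 CPM, then 24.1 and 9.59 CPM), while Scn7a was higher (6.92 and 24.1 CPM, then 3.33 and 6.53 CPM). Their part in the lower levels of the 6 genes was not tested.

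To compare how many cells carried a member, each cell was thinned to 1000 UMIs. At least 1 of the 6 genes was then found in 44.4% (40.2 to 48.7) of WT and 19.3% (17.4 to 21.3) of p25OE melanotroph-gated cells at 14 weeks. At 40 weeks it was found in 32.9% (29.1 to 36.9) and 13.3% (12.5 to 14.1). Macrophage-gated cells, thinned alike, gave 6.04% to 9.13%, mostly from Ap1s2, which they carry in 4.12% to 5.70% of cells. At least 2 members in the same cell were seen in 8.47% (6.27 to 11.1) of WT and 1.69% (1.12 to 2.45) of p25OE melanotroph-gated cells at 14 weeks. The later age gave 3.77% (2.38 to 5.65) for WT and 0.553% (0.388 to 0.765) for p25OE. Thinning left out 2, 3, 0 and 39 cells. At 14 weeks Tmem158 was found in 28.7% of thinned WT and 10.7% of thinned p25OE cells, and at 40 weeks in 20.5% and 7.65%. Before thinning the shares for Tmem158 were 89.7%, 54.2%, 67.3% and 40.9%, at the depths given above. Ap1s2 in thinned p25OE melanotroph-gated cells, at 4.70% (3.71 to 5.85) and 2.60% (2.22 to 3.01), did not exceed, beyond counting error, its share in the macrophage-gated cells of the same libraries, with 4.12% (2.76 to 5.90) and 5.70% (2.64 to 10.5). In p25OE at 14 weeks macrophage-gated cells held Ap1s2 at 39.3 CPM, beside 41.5 in somatotroph-gated, 7.77 in stem-gated and 6.35 in lactotroph-gated cells. Their share is therefore not taken as a measure of free RNA for this gene. Whether macrophages make Ap1s2 themselves was not tested.

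The next comparison set 40 weeks against 14 weeks within a genotype, where age and library cannot be told apart. Between the WT libraries, 1 of 6 members was at least 1.5-fold lower at 40 weeks, beside 19.9% of all genes, and 1 was that much higher, beside 17.2%. These were Ntrk2, 1.68-fold lower (1.42 to 2.0), and Fam19a1, 1.59-fold higher (1.29 to 1.94). Between the p25OE libraries 2 of 6 were lower, beside 25.6% of all genes, and 0 higher, beside 21.3%. Ntrk2 was 3.4-fold lower (2.92 to 3.97) and Olfm3 1.54-fold lower (1.27 to 1.87). Under the scaling by the median gene, the shares of members are near those of all genes, so these counts say nothing particular about the 6 genes. Ap1s2 was 1.32-fold higher (1.17 to 1.48) at 40 than at 14 weeks in WT and 1.25-fold lower (1.14 to 1.36) in p25OE. The scaling bears on these values. In plain CPM Ap1s2 in WT was at 93.8 and 91.2, with overlapping intervals, so its higher level at 40 weeks is not seen there. Fam19a1 in WT was at 28.5 and 33.3 CPM, and the count of higher members in WT was 0 both with plain CPM and with Pomc left out of the total. The count of lower members in p25OE was 3 with plain CPM and 4 with Pomc left out. The share of all genes was not computed under these scalings, so nothing is read from those counts.

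Within a library, the 6 genes were then read against how much Pomc a melanotroph-gated cell carried. The choice of the genes used the same cells, and p25OE cells carried less Pomc than WT cells. A gene that falls with Pomc within p25OE was thus more likely to be chosen, so the counts below are descriptions. In p25OE the members were lower in the cells with the least Pomc, and in WT they were mostly level. Pomc took a median of 21.4% of a cell's UMIs in WT against 14.4% in p25OE at 14 weeks, and 23.8% against 7.18% at 40 weeks. Cells were ranked by this share and cut into 3 groups of equal size, called low, middle and high. Levels were expressed as non-Pomc CPM, that is, per 1000000 UMIs other than Pomc. Between the low and the high group, 6 of 6 members were at least 1.5-fold lower in p25OE at 14 weeks, where 4.80% of 13299 genes were, and 5 of 6 in p25OE at 40 weeks, where 8.68% of 14649 genes were. In WT this held for 0 of 6 at 14 weeks (4.17% of genes) and for 1 of 6 at 40 weeks (5.94%). The median log2 ratio of low over high was -1.36 and -1.46 in the p25OE libraries and -0.05 and -0.08 in WT, beside 0.06 to 0.17 over all genes.

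Olfm3 had the steepest of these slopes among the members. In p25OE at 40 weeks it went from 1.70 non-Pomc CPM in the low group through 2.90 in the middle to 12.6 in the high group, which is 7.38-fold lower (4.87 to 11.6) at the low end. In p25OE at 14 weeks the values were 4.75, 12.7 and 17.5, or 3.68-fold lower (2.31 to 6.07). In WT at 14 weeks the groups were at 34.9, 37.0 and 38.1 and could not be told apart by counting error, and in WT at 40 weeks they were at 17.1, 31.8 and 31.5, 1.85-fold lower (0.998 to 3.42) at the low end.

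Ntrk2 was at 13.4, 26.2 and 39.0 non-Pomc CPM from the low to the high group in p25OE at 14 weeks and at 3.88, 3.16 and 10.9 at 40 weeks, which makes it 2.90-fold (2.18 to 3.89) and 2.81-fold lower (2.08 to 3.84) in the low group. Its WT groups were at 113, 107 and 111 at 14 weeks and at 48.3, 48.2 and 56.5 at 40 weeks. So the WT levels were flat within counting error while the p25OE levels were not. Fam19a1 was 3.07-fold (2.03 to 4.74) and 3.31-fold lower (2.68 to 4.12) in the low group of p25OE, and 1.24-fold (0.928 to 1.64) and 1.11-fold lower (0.725 to 1.67) in that of WT. Ap1s2 was 2.13-fold (1.76 to 2.59) and 2.68-fold lower (2.35 to 3.07) in p25OE, against 1.28-fold lower (1.1 to 1.5) in WT at 14 weeks and a ratio of 1.12 (0.852 to 1.49) in WT at 40 weeks. For Tmem158 the p25OE values were 2.08-fold (1.88 to 2.30) and 2.37-fold lower (2.20 to 2.55), and the WT ratios of low over high were 1.02 (0.944 to 1.11) and 0.986 (0.845 to 1.15).

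Mdga2 went the other way in WT. Its low group stood above its high group in WT at 14 weeks, with 68.5 against 48.1 non-Pomc CPM and a ratio of 1.42 (1.13 to 1.80), and at 40 weeks, with 46.0 against 35.5 and a ratio of 1.30 (0.814 to 2.12). With each cell thinned to 1000 UMIs other than Pomc the WT direction turned, with log2 ratios of -1.04 and -0.44. In p25OE it was 2.29-fold lower (1.62 to 3.26) and 1.46-fold lower (1.23 to 1.74) in the low group, so that Mdga2 at 40 weeks is the member that missed 1.5-fold.

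Several other measures moved with the groups. Median depth from low to high was 7598, 9454 and 9955 UMIs in the younger p25OE library and 6124, 6694 and 9846 in the older one, against 22473, 16902 and 17075 in WT at 14 weeks and 7453, 7296 and 5589 at 40 weeks. Pcsk2, the convertase that cuts the Pomc product, went from 1445 to 2133 non-Pomc CPM and from 1972 to 4456 in p25OE, and from 1946 to 3007 and from 2166 to 2925 in WT, so it was lower at the low end in all 4 libraries. Pax7 was at 279 and 244 non-Pomc CPM in the low and high group of p25OE at 14 weeks and at 179 and 172 at 40 weeks. In WT it was at 219 and 179 at 14 weeks and at 135 and 108 at 40 weeks. The low groups thus held Pax7 at least at the level of the high groups. RNA of other cells moved too. Gh, the growth hormone gene of somatotrophs, went from 15936 to 5191 non-Pomc CPM between the low and the high group in WT at 14 weeks and from 8322 to 5614 in p25OE at 14 weeks, and from 32365 to 41394 and from 656 to 684 in WT and p25OE at 40 weeks. With each cell thinned to 1000 UMIs other than Pomc, from few counts, 6 of 6 and 5 of 6 members were at least 1.5-fold lower in p25OE at 14 and 40 weeks, of which Olfm3 at 40 weeks had no UMI in the low group and so no ratio. In WT the same thinning gave 1 of 6 at 14 weeks and 3 of 6 at 40 weeks. The share of all genes was not computed after this thinning, so nothing is read from these thinned counts. The part of depth and of other cells' RNA in these slopes was not tested.

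The groups of WT and p25OE lie at different Pomc shares, so the same cells were also compared in fixed ranges of that share. In cells with 10 to 20% Pomc, 6 of 6 members were at least 1.5-fold lower in p25OE than in WT at 14 weeks (7.42% of all genes) and 6 of 6 at 40 weeks (11.2%). In cells with 20% or more the counts were 6 of 6 at 14 weeks (7.41%) and 5 of 6 at 40 weeks (10.7%). Olfm3 in the 10 to 20% range at 40 weeks was 1.55-fold lower with an interval from 0.837 to 2.69. These ratios rest on the contrast that chose the genes and are descriptions. The ranges under 10% held only 6 to 35 WT cells each and were not compared.

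At a Pomc share of 20% or more, Ntrk2 was at 115 non-Pomc CPM in WT against 35.7 in p25OE at 14 weeks, a level 3.21-fold lower (2.60 to 3.98), and at 52.2 and 13.6 at 40 weeks, 3.83-fold lower (2.93 to 5.00). Mdga2 was 2.16-fold lower (1.66 to 2.82) and 1.82-fold lower (1.37 to 2.40) there, Olfm3 2.07-fold (1.51 to 2.87) and 2.36-fold (1.72 to 3.20). Ap1s2 was 1.91-fold (1.63 to 2.25) and 2.11-fold lower (1.80 to 2.46), and Tmem158 2.02-fold (1.85 to 2.20) and 2.12-fold lower (1.94 to 2.32). Fam19a1 was 2.01-fold lower (1.49 to 2.73) at 14 weeks and 1.47-fold lower (1.13 to 1.90) at 40 weeks, with 40.5 non-Pomc CPM in WT and 27.5 in p25OE. In that range p25OE cells were below WT cells for every member at both ages, with intervals that leave out a ratio of 1.

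Within p25OE most levels were lower still in the ranges with less Pomc. Ap1s2 in p25OE at 40 weeks was at 57.3 non-Pomc CPM in 1195 cells with 20% or more Pomc, 44.8 in 1314 cells with 10 to 20%, 27.9 in 1592 cells with 5 to 10% and 19.1 in 2445 cells with 1 to 5%. Tmem158 was at 171, 127, 85.1 and 66.3 in the same ranges. Olfm3 was at 14.0, 9.41, 2.67 and 1.69. Ntrk2, by contrast, was at 13.6, 6.77, 3.11 and 3.62, so its 2 lowest ranges did not differ beyond counting error. Mdga2 was at 20.2, 21.2, 17.8 and 14.3, with its 2 highest ranges level within counting error. At 14 weeks Ntrk2 in p25OE was at 35.7, 29.0, 17.1 and 4.10, the last from 148 cells.

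**Figure D2:**
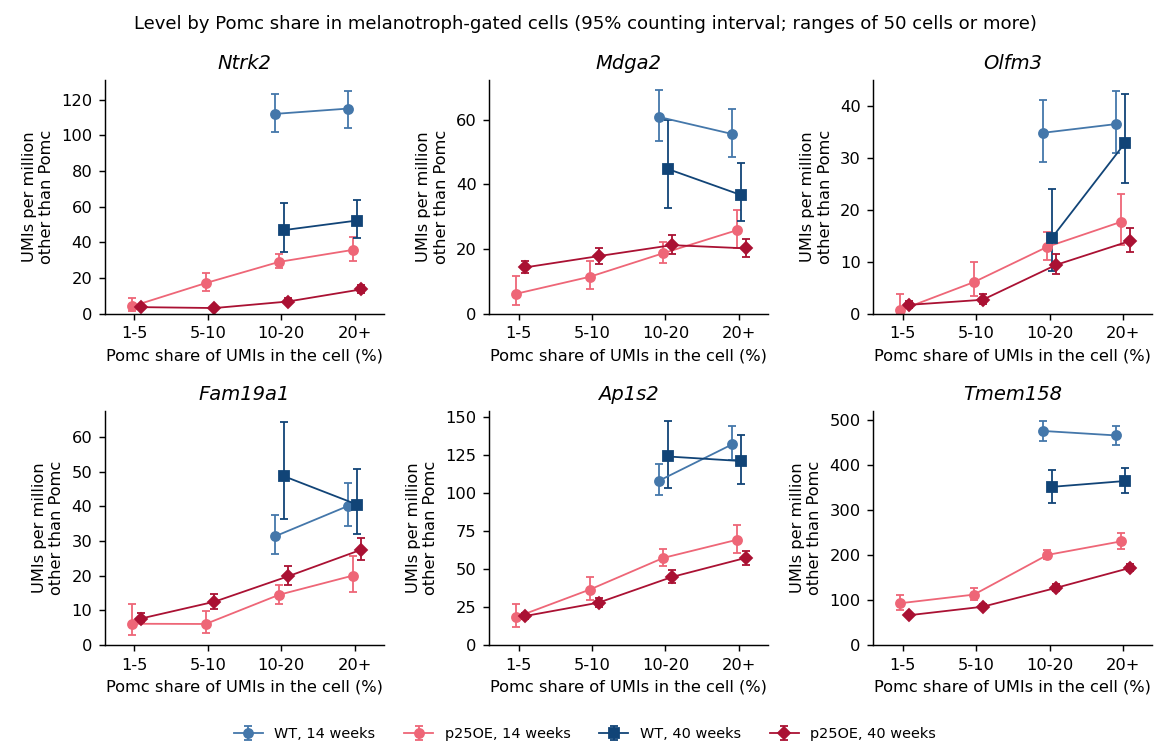
UMIs per 1000000 UMIs other than Pomc (y axis, from 0) against the range of a cell's Pomc share (x axis, percent) for melanotroph-gated cells of each library, with 95% counting intervals, in ranges of at least 50 cells. In p25OE the levels are mostly higher at a higher Pomc share, as for Ap1s2 from 19.1 to 57.3 at 40 weeks, and they end below the WT points at 20% and over.

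Dividing cells were set apart next, since they were present in p25OE. Cells with UMIs of at least 2 of 6 proliferation markers made up 16.6% of p25OE melanotroph-gated cells at 14 weeks (265 cells) and 21.8% at 40 weeks (1424 cells), against 2 and 0 cells in WT. At 14 weeks 5 of 6 members were at least 1.5-fold lower in dividing than in other p25OE melanotroph-gated cells, where 5.35% of genes were. Ntrk2 was at 9.58 CPM in dividing and 26.1 CPM in other cells, 2.72-fold lower, and Olfm3 at 5.02 and 11.3 CPM, 2.25-fold lower. Ap1s2, at 34.0 and 47.8 CPM, was 1.41-fold lower. At 40 weeks none of the 6 was at least 1.5-fold lower, where 2.70% of genes were, and the members were 1.01-fold (Fam19a1) to 1.15-fold lower (Mdga2). Dividing cells were deeper than the others, with medians of 14345 against 8095 UMIs at 14 weeks and 9873 against 6598 at 40 weeks. Their median Pomc share was 10.7% against 15.4%, and 6.32% against 7.45%. Without the dividing cells, all 6 members were still at least 1.5-fold lower in p25OE than in WT at both ages, where 8.86% and 17.7% of genes were. The counts over groups of Pomc share remained 6 and 5 of 6 in p25OE, with no share of all genes computed for them.

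Outside the melanotrophs, cells that the choice of the genes did not use were gated by their own markers. In the 2 WT libraries, Mdga2, Olfm3, Fam19a1, Ap1s2 and Tmem158 were each highest in melanotroph-gated cells among classes of at least 50 cells. In each case the next class lay below beyond counting error. The WT melanotroph level is part of the contrast that chose the genes, so this order was favoured by the choice and is a description. Mdga2 was at 47.8 CPM in WT melanotroph-gated cells at 14 weeks, followed by 9.61 CPM in corticotroph-gated and 2.99 CPM in stem-gated cells. Fam19a1 was at 28.5 CPM, followed by 2.85 CPM in corticotroph-gated cells. Olfm3 was at 28.8 CPM in melanotroph-gated, 17.8 in lactotroph-gated and 13.2 in corticotroph-gated cells, the last 2 within counting error of each other. Tmem158 was at 363 CPM, followed by 91.1 CPM in corticotroph-gated cells, and Ap1s2 at 93.8 CPM, followed by 56.9 CPM in corticotroph-gated and 44.0 CPM in macrophage-gated cells.

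Ntrk2 had another order. In WT at 14 weeks it was at 371 CPM in corticotroph-gated cells, 259 CPM in stem-gated cells and 87.5 CPM in melanotroph-gated cells, each apart from the next. In WT at 40 weeks corticotroph-gated and gonadotroph-gated cells were both at 165 CPM and stem-gated cells at 129 CPM, and neighbours in this order did not differ beyond counting error. The 24 pituicyte-gated cells of WT at 14 weeks, glia of the posterior lobe, held Ntrk2 at 1194 CPM. From 30 UMIs they held Ap1s2 at 180 CPM (121 to 257), above the 93.8 CPM (88.1 to 99.7) of melanotroph-gated cells. Corticotrophs are the Pomc cells of the anterior lobe, and they lack Pax7.

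**Figure D3:**
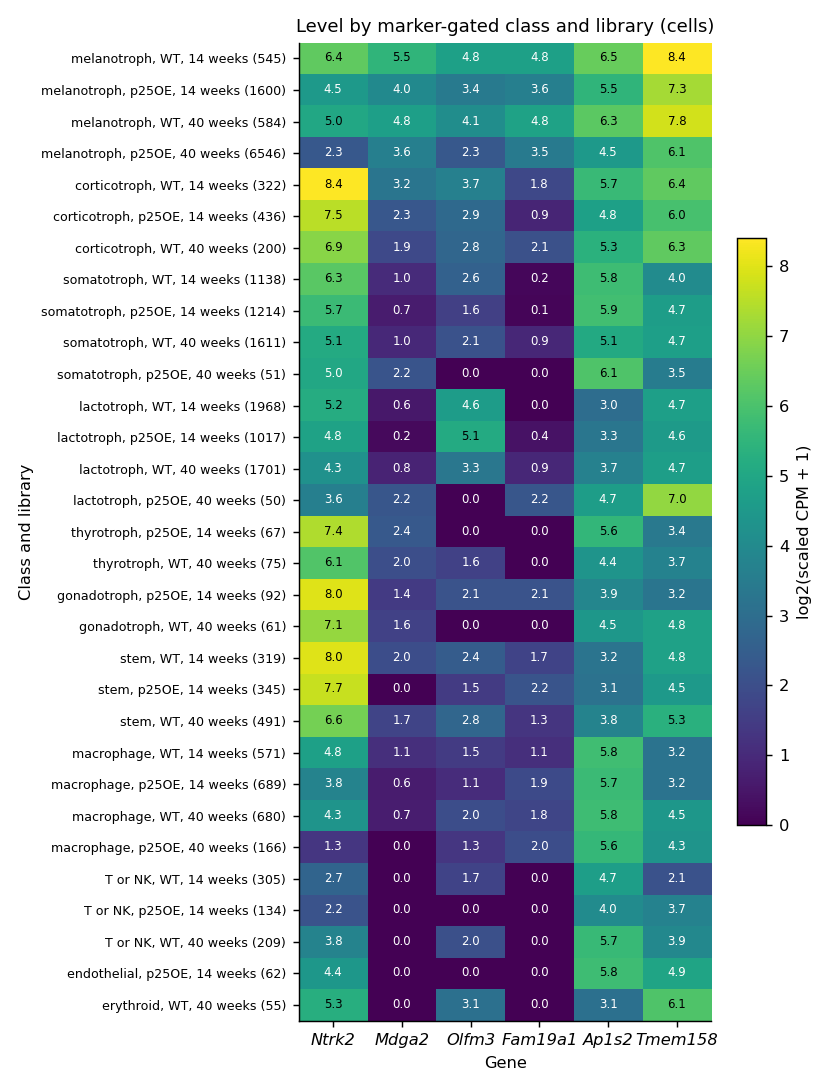
Log2 of scaled CPM plus 1 (colour and printed value) for the 6 genes (columns) in each class and library with at least 50 cells (rows, cell number in brackets). Mdga2 and Fam19a1 stand out in the melanotroph rows, while Ntrk2 is higher in corticotroph, gonadotroph and stem rows.

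At 14 weeks the corticotroph-gated cells of p25OE (436) and WT (322) differed in the same direction as the melanotroph-gated cells. Of 5 members with at least 20 UMIs, 4 were at least 1.5-fold lower in p25OE, where 6.64% of 11634 genes were. Ntrk2 was at 371 CPM in WT and 200 CPM in p25OE, 1.83-fold lower (1.66 to 2.02), and Ap1s2 at 56.9 and 28.3 CPM, 1.99-fold lower (1.53 to 2.59). Mdga2, with 27 and 14 UMIs, was 2.27-fold lower (1.15 to 4.69), and Olfm3, with 37 and 23 UMIs, 1.90-fold lower (1.1 to 3.34). Tmem158 was at 91.1 and 66.2 CPM, 1.36-fold lower (1.13 to 1.63), and Fam19a1 had 8 and 3 UMIs. The log2 ratio of Ntrk2 in melanotroph-gated cells was below that in corticotroph-gated cells by 1.31, with an interval of the difference from -1.53 to -1.09, and that of Tmem158 by 1.0, from -1.26 to -0.73. For Ap1s2 the difference was -0.28, from -0.67 to 0.11, so the 2 classes could not be told apart for this gene. The genes were chosen on the melanotroph ratio, which favours a larger drop there, so these differences are descriptions. At 40 weeks only 3 corticotroph-gated cells were found in p25OE, and no comparison was made.

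Somatotroph-gated cells (1138 in WT, 1214 in p25OE at 14 weeks) had 3 of 5 members at least 1.5-fold lower in p25OE, where 8.92% of 14341 genes were. These were Ntrk2, at 56.7 and 37.9 CPM and 1.53-fold lower (1.38 to 1.69), Olfm3, with 86 and 21 UMIs and 2.68-fold lower (1.65 to 4.55), and Mdga2, with 18 and 6 UMIs and 1.96-fold lower (0.747 to 6.05). Ap1s2 was at 41.1 and 41.5 CPM and Tmem158 at 11.7 and 17.8 CPM, 1.49-fold higher in p25OE (1.25 to 1.78). Without the 6% of cells with the most UMIs, 1 member was lower and 1 higher by 1.5-fold, beside 8.93% of genes higher with all cells.

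Lactotroph-gated cells at 14 weeks (1968 in WT, 1017 in p25OE) had 0 of 4 members at least 1.5-fold lower, where 7.0% of genes were. Olfm3 was at 17.8 CPM in WT and 24.2 CPM in p25OE, 1.34-fold higher (1.18 to 1.52), the direction opposite to that in melanotroph-gated cells. Ntrk2 was 1.37-fold lower (1.21 to 1.55). Without the 6% of cells with the most UMIs, 1 member was lower and 1 higher by at least 1.5-fold in this class, beside 12.2% of genes higher with all cells. Stem-gated cells (319 and 345) had 0 of 3 members lower, where 7.54% of genes were, with Ntrk2 at 259 and 204 CPM. In macrophage-gated cells Ntrk2 was lower in p25OE at both ages, as given above, while Ap1s2 and Tmem158 had overlapping intervals. In T or NK-gated cells at 14 weeks Ap1s2 was at 25.7 CPM (16.3 to 38.5) in WT. In those of p25OE it was at 16.4 CPM (7.50 to 31.2), again with overlapping intervals.

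At 40 weeks the p25OE library held only 51 somatotroph-gated and 50 lactotroph-gated cells, where 32.8% and 26.5% of genes were at least 1.5-fold lower and 18.7% and 19.2% higher than in WT. Of 4 members measured in somatotroph-gated cells, 2 were lower (Olfm3 and Tmem158) and 1 higher (Ap1s2), and of 4 in lactotroph-gated cells 2 were lower (Ntrk2 and Olfm3) and 2 higher (Ap1s2 and Tmem158). Ntrk2 in lactotroph-gated cells was 1.97-fold lower (0.890 to 5.41) from 6 UMIs in p25OE, and Tmem158 in somatotroph-gated cells 2.73-fold lower (0.928 to 13.3) from 3. Tmem158 was at 26.1 CPM in WT and 107 CPM in p25OE lactotroph-gated cells, 4.25-fold higher (3.24 to 5.52), with its 70 UMIs spread over 25 cells and at most 7 in 1 cell. Ap1s2 was at 29.7 and 69.3 CPM in somatotroph-gated cells, 1.81-fold higher (1.08 to 2.86). In lactotroph-gated cells it was at 12.3 CPM (10.4 to 14.4) in WT and, from 13 UMIs, at 19.9 CPM (10.6 to 34.0) in p25OE, with overlapping intervals. Olfm3 had no UMI in either p25OE class, which allows up to 10.9 CPM in somatotroph-gated and 4.59 CPM in lactotroph-gated cells, against 2.96 and 9.39 CPM in WT. For somatotroph-gated cells this limit lies above the WT level, so no direction can be read there. Melanotroph-gated cells made up 84.7% of the kept cells of this library and held Tmem158 at 91.6 CPM. The part of free RNA in these small classes was not tested.

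**Figure D4:**
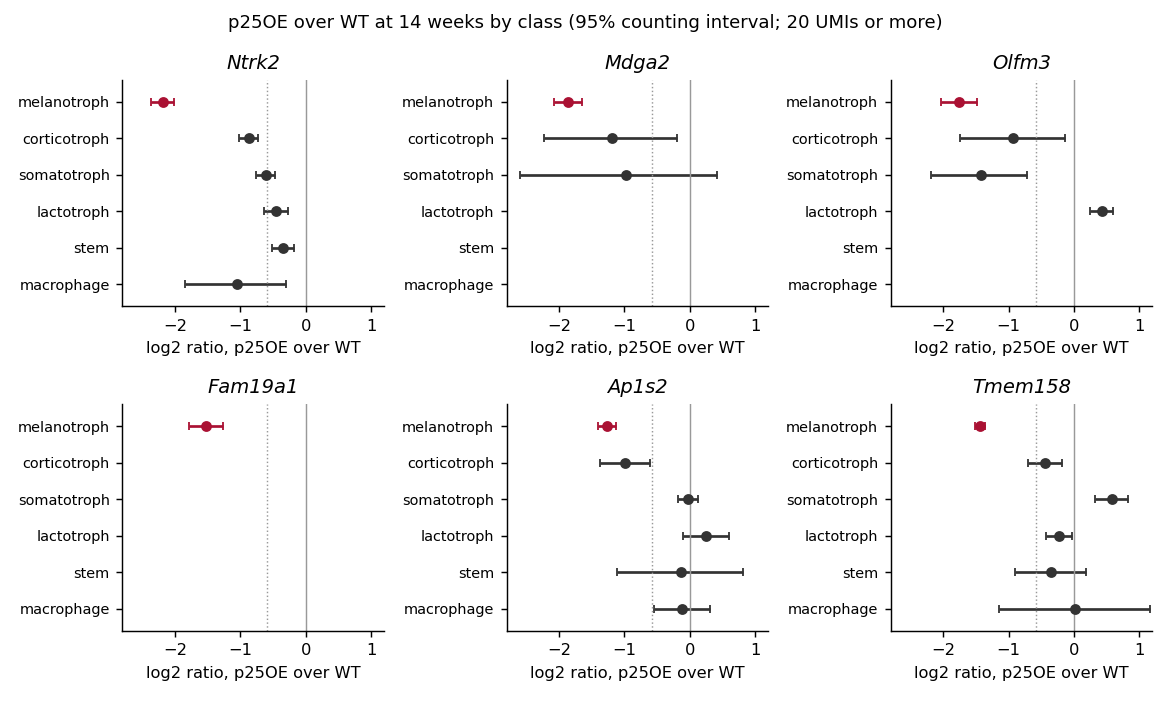
Log2 ratio of p25OE over WT at 14 weeks (x axis) by class (y axis) for members with at least 20 UMIs, with 95% counting intervals, a line at 0 and a dotted line at 1.5-fold lower. Melanotroph-gated cells (red), the class on whose ratio the genes were chosen, lie furthest to the left for each gene shown. Corticotroph-gated cells lie left of 0 for all 5 genes measured, and Olfm3 in lactotroph-gated and Tmem158 in somatotroph-gated cells lie to the right.

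Other genes of the same pathways were read from 8 lists in melanotroph-gated cells, counted against the 9.57% (14 weeks) and 18.6% (40 weeks) of all genes that were at least 1.5-fold lower in p25OE and the 17.7% and 23.1% that were higher. Of the neurotrophin pathway, 4 of 15 measured genes were lower and 2 higher at 14 weeks, and 4 of 16 lower and 5 higher at 40 weeks. Ntrk3, which encodes TrkC, the receptor of neurotrophin-3, was at 19.2 scaled CPM in WT against 3.67 in p25OE at 14 weeks, a level 5.22-fold lower (4.01 to 6.86), and at 25.9 and 4.78 at 40 weeks, 5.43-fold lower (4.20 to 6.95). Bdnf, the ligand of TrkB, parted by age. It was at 45.4 scaled CPM in WT against 17.4 in p25OE at 14 weeks, a level 2.61-fold lower (2.28 to 2.99), and at 39.7 and 52.9 at 40 weeks, 1.33-fold higher (1.12 to 1.60). Sort1, which encodes sortilin, was 1.24-fold higher (1.07 to 1.44) and 1.23-fold higher (0.951 to 1.62).

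Of the synaptic adhesion list, 9 of 37 genes were lower and 5 higher at 14 weeks, and 13 of 38 lower and 3 higher at 40 weeks. Mdga1, the paralog of Mdga2, was at 1.55 scaled CPM in WT against 7.49 in p25OE at 14 weeks, which is 4.84-fold higher (2.96 to 8.37), and at 2.44 and 2.40 at 40 weeks. Nlgn1, a neuroligin, was 1.53-fold lower (1.26 to 1.87) and 2.43-fold lower (1.53 to 3.71), while Nlgn2 was at 31.0 and 32.2 scaled CPM at 14 weeks and 1.33-fold lower (1.07 to 1.63) at 40 weeks. Lrrtm4, which encodes a postsynaptic adhesion protein, was 2.81-fold (2.20 to 3.60) and 5.70-fold lower (3.67 to 8.64).

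Of the olfactomedin and TAFA families, 2 of 7 genes were lower and 0 higher at 14 weeks, and 3 of 9 lower and 3 higher at 40 weeks. The 2 lower at 14 weeks were Fam19a2 and Fam19a5, the last with 22 UMIs in each library, and the 3 lower at 40 weeks were Olfm4, Olfml3 and Fam19a5. Olfm1 was at 27.3 and 21.9 scaled CPM in WT and p25OE at 14 weeks and at 40.6 and 66.3 at 40 weeks, 1.63-fold higher (1.37 to 1.96). Fam19a2 was 2.85-fold lower (2.09 to 3.91) at 14 weeks and 1.48-fold lower (0.890 to 2.35) at 40 weeks. Fam19a5 was 1.80-fold lower (0.952 to 3.41) and, from 3 UMIs in WT, 1.79-fold lower (0.349 to 5.77), and neither interval leaves out a ratio of 1.

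The AP-1 adaptor and clathrin list differed from Ap1s2. At 14 weeks 0 of its 16 genes were lower and 0 higher, and at 40 weeks 2 (Ap1b1 and Ap1g2) were lower and 0 higher. Ap1s1 was at 52.3 and 51.1 scaled CPM at 14 weeks and at 97.3 and 82.5 at 40 weeks, and Ap1s3 at 5.94 and 6.25, and at 7.32 and 7.78. The other subunits of the complex, Ap1g1, Ap1m1 and Ap1b1, were at 37.9 and 39.0, 17.3 and 17.6, and 23.2 and 22.9 scaled CPM at 14 weeks. At 40 weeks Ap1b1 was 1.64-fold lower (1.33 to 2.0) and Ap1g1 1.38-fold lower (1.12 to 1.69).

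Of the Ras-MAPK list, chosen beside Tmem158, 3 of 21 genes (Braf, Dusp6 and Etv5) were lower and 2 (Dusp5 and Etv4) higher at 14 weeks, and 0 lower and 9 higher at 40 weeks. Dusp5, a phosphatase that turns off ERK, was 4.26-fold higher (3.66 to 4.98) and 2.08-fold higher (1.51 to 2.96). GABA receptor genes went both ways, with 3 of 12 lower and 5 higher at 14 weeks and 6 of 13 lower and 4 higher at 40 weeks. Gabrb1 was 2.72-fold (2.43 to 3.05) and 3.86-fold lower (3.24 to 4.57) and Gabrg1 2.15-fold (1.66 to 2.78) and 14.3-fold lower (8.72 to 23.2). Gabrd was 11.9-fold higher at 14 weeks (4.93 to 37.3) from 5 and 107 UMIs, and Gabrg3 6.84-fold higher (3.48 to 15.4) from 9 and 111 UMIs. At 40 weeks neither had a UMI in WT, and taking 3 counts for the WT library as the limit, they were at least 2.29-fold and 3.18-fold higher in p25OE.

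Of voltage-gated channels, 2 of 33 were lower and 7 higher at 14 weeks, and 11 of 32 lower and 6 higher at 40 weeks. Kcnd3, a potassium channel, was 2.06-fold (1.59 to 2.69) and 6.73-fold lower (4.59 to 9.69), and Scn9a, a sodium channel, 4.03-fold (3.20 to 5.11) and 3.41-fold higher (2.30 to 5.29). Of exocytosis and synaptic vesicle genes, 5 of 27 were lower and 4 higher at 14 weeks, and 6 lower and 2 higher at 40 weeks. Syt7, a calcium sensor of exocytosis, was 1.95-fold (1.76 to 2.15) and 3.61-fold lower (3.14 to 4.14). The medians of the 8 lists lay between -0.20 and 0.09 on the log2 scale at 14 weeks and between -0.39 and 0.46 at 40 weeks.

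**Figure D5:**
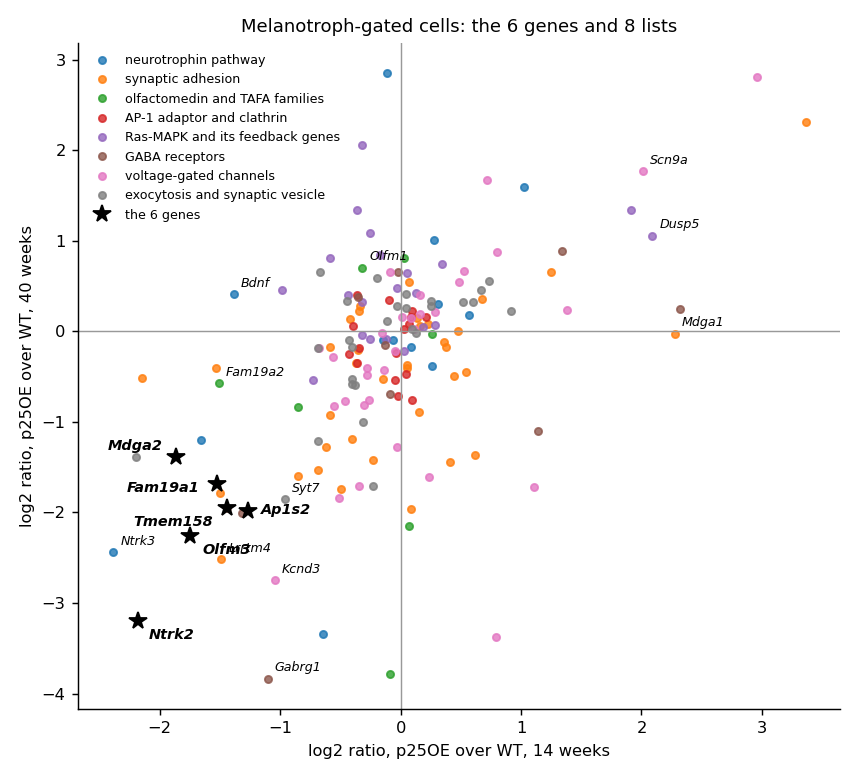
Log2 ratio of p25OE over WT in melanotroph-gated cells at 14 weeks (x axis) and 40 weeks (y axis) for 163 genes of the 8 lists (coloured points) and the 6 genes (stars). The AP-1 genes lie near 0 at 14 weeks, Ntrk3 and Lrrtm4 lie beside the stars, and Bdnf lies to the left but above 0.

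Likeness was taken over the sums of 31 combinations of class and library, as Pearson's r of log2 of scaled CPM plus 1 among 13936 genes. These sums share libraries, depth and the genotype, so r is a description. Nearest to Ntrk2 were Eya1 (0.892), Abcd3 (0.860) and Rmst (0.851). Mdga2 was nearest to Nlgn1 (0.862), Scn2a (0.849) and Sv2b (0.831), Fam19a1 to Mycl (0.872), Nrap (0.859) and Megf11 (0.801), and Tmem158 to Nrxn2 (0.871), Wnt5b (0.804) and Egfem1 (0.804). Olfm3 had Olfr1507 (0.810), Sema3a (0.753) and Piwil1 (0.711), and Ap1s2 had Prdm1 (0.689), Rnf115 (0.669) and Pbx3 (0.639). Among the members, r was 0.729 for Mdga2 with Fam19a1, 0.702 for Mdga2 with Tmem158 and 0.689 for Fam19a1 with Tmem158, while Ntrk2 reached at most 0.281 with any other.

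A gene of like pattern over classes was not always lower in p25OE melanotroph-gated cells. Sema3a, a secreted guidance protein, was 2.48-fold lower at 14 weeks and 5.17-fold lower at 40 weeks, and Sv2b, a synaptic vesicle protein, 1.61-fold and 2.31-fold lower. Mycl, a transcription factor of the Myc family, was 2.75-fold higher (2.36 to 3.22) and 2.58-fold higher (1.85 to 3.69), and Wnt5b, a Wnt ligand, 1.52-fold (1.32 to 1.76) and 1.53-fold higher (1.18 to 2.02). Nrxn2, a neurexin, was at 103 and 108 scaled CPM at 14 weeks and 1.46-fold higher (1.32 to 1.62) at 40 weeks.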

How the data were processed

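Pituitary cells of 4 libraries were measured by 10x single-cell RNA-seq, 1 library per genotype and age. The deposited values are UMI counts per gene and barcode, made by the authors with Cell Ranger 3.0.2 on mm10 per the submitters' processing notes, although version 3.0.1 stands in the file headers. The labels' protocols name 2 independent runs and a v2 kit, and which libraries shared a run is not given in the sources used here. Barcode sets differ between the ages. Because each genotype has 1 library per age, age and library cannot be told apart.

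Here, barcodes with at least 500 genes and at most 20% mitochondrial UMIs were kept and gated by summed markers. Cells that passed several gates (0.375% to 3.27%) or none (11.0% to 24.4%) entered no class. No doublet caller was run, and an alternative leaves out the 6% of cells with the most UMIs. UMIs were summed per library and class and scaled by the median of ratios (python 3.11.15, scipy 1.17.1). A ratio needed 20 UMIs over the pair, and a class 50 cells per library. Intervals are exact (2 Poisson counts, Clopper-Pearson) and cover counting error only. Intervals of differences between classes use a normal approximation on the log scale. The script was tested on simulated data.

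The 6 genes, the 8 lists, the markers and the gates were chosen with earlier results of these data known. Besides the members, genes named are the gate's genes, direct paralogs or partners, up to 2 highest and 2 lowest genes of a list with at least 50 UMIs and an interval beyond 1.5-fold in the same direction at both ages, and the 3 genes most like each member. Cdk5r1, Xist, single markers and the list genes that spell out counts of 3 or fewer were named after their values were seen. Alternatives cover scaling, filters, gates, doublets and depth.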

Additional observations from a re-analysis of the deposited data

Results flagged for a closer look

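Of results whose direction differed between 2 groups under the same contrast, 6 were found, and none of the differences was tested. Mdga2 was higher in the cells with a low than in those with a high Pomc share in both WT libraries and lower in both p25OE libraries, and the mean log2 ratio differed by -1.31 (p25OE minus WT). Its log2 ratios were 0.51 and 0.38 in WT and -1.19 and -0.55 in p25OE. Thinned to 1000 UMIs other than Pomc, the WT values were -1.04 and -0.44, so the opposite direction does not hold in that setting, which rests on few counts.

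Ap1s2 was higher at 40 than at 14 weeks in WT and lower in p25OE, with a difference of the log2 ratios of -0.72. In plain CPM the WT values were 93.8 and 91.2, so the opposite direction does not hold under that scaling.

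Against lower levels in p25OE melanotroph-gated cells, Olfm3 was 1.34-fold higher in p25OE lactotroph-gated cells at 14 weeks and Tmem158 1.49-fold higher in p25OE somatotroph-gated cells at 14 weeks. At 40 weeks Ap1s2 was 1.81-fold higher in 51 somatotroph-gated cells and Tmem158 4.25-fold higher in 50 lactotroph-gated cells of p25OE.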

How the results depend on the processing

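All 6 members were at least 1.5-fold lower in p25OE melanotroph-gated cells at both ages under each of the 10 alternatives run, and none of their log2 ratios reversed. The weakest were -0.86 for Ap1s2 at 14 weeks and -0.81 for Mdga2 at 40 weeks. The members were chosen on this contrast in the same libraries, so no support is drawn from this stability. The count of all genes lower was less stable: from 1400 and 2890 (14 and 40 weeks) it went to 814 and 1622 with plain CPM, 484 and 1552 at 2-fold, and 4780 and 4919 with no minimum of UMIs. It was 1569 at 40 weeks with the mean of per-cell CPM and 767 at 14 weeks after thinning, where fewer genes are tested. Plain CPM moved the median of all genes to 0.23 and 0.40 (log2), and the lower share of called genes from 35.1% and 44.7% to 18.0% and 20.5%, or 26.3% and 30.6% without Pomc. By age, the share of all genes was computed only under the scaling by the median gene. Plain CPM gave 2 lower and 0 higher members in WT and 3 lower in p25OE. Without Pomc it gave 0 higher in WT and 4 lower in p25OE. These 2 settings, and those that repeat the Pomc comparisons without dividing cells, with other cell filters or a stricter gate, were chosen after seeing the data. Low over high Pomc cells gave 6 and 5 members in p25OE in every setting, though after thinning Olfm3 at 40 weeks was counted with no UMI in the low group. In WT at 14 weeks thinning gave 1, and in WT at 40 weeks 2 groups in place of 3 gave 0, CPM with Pomc 0 and thinning 3. For the Pomc groups the share of all genes was not computed in these other settings. Without the 6% deepest cells, somatotroph-gated cells at 14 weeks had 1 lower and 1 higher member (plain CPM 1 higher) and lactotroph-gated cells 1 and 1. The cause of these shifts was not tested. Depth limits Fam19a1 and Mdga2 outside melanotroph-gated cells. No paired analysis was possible because each group is 1 library, and no replicate could be left out.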
